A study of Bos taurus with 38 samples.

Results

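RAB11A, STX17, SYT4, LIN7A, WASHC3, CHMP7, ATP6V1D, BBS4, TTC30A and RSPH9 are 10 genes of vesicle traffic and of the cilium, and their transcripts were followed in cattle oocytes and in the cumulus cells around the same oocytes. They are 10 of the 27607 Ensembl identifiers in each count file, and all 10 passed the filter on low counts in both compartments. They were selected on measured values of these complexes, and their identifiers were taken from the supplementary tables of the study. All but CHMP7 had been named in the study for very high coefficients between their cumulus level and an oocyte gene over BCB positive complexes, and for annotation to exocytosis or cell projection organization, whereas CHMP7 was listed for its difference between the BCB classes in cumulus cells. Those coefficients, the spread of the genes over complexes and the BCB difference of CHMP7 in cumulus cells therefore appear here as descriptions with no test. The other comparisons were tested across all genes.

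Brilliant cresyl blue (BCB) is a vital dye that is broken down by an enzyme of growing oocytes, so that an oocyte that stays blue (BCB positive) is taken to be fully grown and one that loses the color (BCB negative) to be still growing. The complexes came from antral follicles of cattle ovaries from an abattoir, all were exposed to the dye, and the breed and age of the animals are not given in the sources used here, nor was the stage of the follicular wave controlled. Each of 9 BCB positive and 10 BCB negative complexes was separated into its oocyte and its cumulus cells, and RNA of each was reverse transcribed from the poly(A) tail, amplified and sequenced, which gave 38 libraries. A library is 1 oocyte, or the cumulus cells of 1 complex, and nothing in the labels ties complexes to animals, so that p-values here measure the spread between complexes. The complex numbers fall into 3 runs. Complexes 6 to 24 hold 3 BCB positive and 1 BCB negative, complexes 65 to 74 hold 6 and 3, and complexes 86 to 91 hold 6 BCB negative and 0 BCB positive, where run and BCB class cannot be told apart.

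Oocyte libraries held 8886070 to 29810354 counts and cumulus libraries 1103200 to 10430148, and the 3 smallest cumulus libraries were the BCB negative complexes 65, 66 and 68. The labelled compartments carried those of their markers that could be matched, 2 for oocytes and 10 for cumulus cells. ZP2 and ZP3, proteins of the zona pellucida, summed to 2713 to 5051 CPM (counts per 1000000 counts of the library) in oocytes and to 0 to 65.3 CPM in cumulus cells, with the highest cumulus sums in complexes 66 (65.3) and 68 (48.0). The 10 matched cumulus markers, FSHR, INHA and FST among them, summed to 9178 to 37654 CPM in cumulus cells and to 66.3 to 3893 CPM in oocytes, with the highest oocyte sums in complexes 72 (3893) and 88 (1189). CPM rests on the library total, whereas TMM scaling rests on the bulk of genes. The choice matters in cumulus cells, where the median of all genes differed between the BCB classes by -0.01 on the log2 scale after TMM and by 0.46, higher in BCB positive, on library totals alone. Between oocytes and cumulus cells the same median was 0.18 after TMM and 0.61 on library totals. Log2 differences below are after TMM unless library totals are named, and CPM values are on library totals.

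Membrane proteins travel between the cell surface, endosomes and lysosomes in vesicles, which RAB GTPases direct, SNARE proteins fuse, the vacuolar proton pump (V-ATPase) acidifies and the ESCRT-III proteins cut off or seal. A fully grown oocyte stores cortical granules that it releases by exocytosis at fertilization, and cumulus cells exchange material with it across the zona pellucida. The primary cilium, a sensory organelle of many somatic cells including those of the follicle, is built by intraflagellar transport and supplied with membrane proteins by the BBSome, whereas radial spokes belong to motile cilia and flagella.

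RAB11A, STX17, BBS4, WASHC3 and CHMP7 were higher in oocytes, SYT4, ATP6V1D, RSPH9 and LIN7A were higher in cumulus cells, and TTC30A did not pass the test. Thus 9 of the 10 genes passed an FDR of 0.01 in edgeR's quasi-likelihood test with the complex as a block, where 88% of the 14785 genes tested did, so that passing it is no mark of these genes. On library totals alone 7 of the 10 passed, where 86.9% of genes did. Levels are shares of a library and not amounts of transcript in a cell. In cumulus libraries, fewer cells of a type also cannot be told from less RNA per cell.

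**Figure D1:**
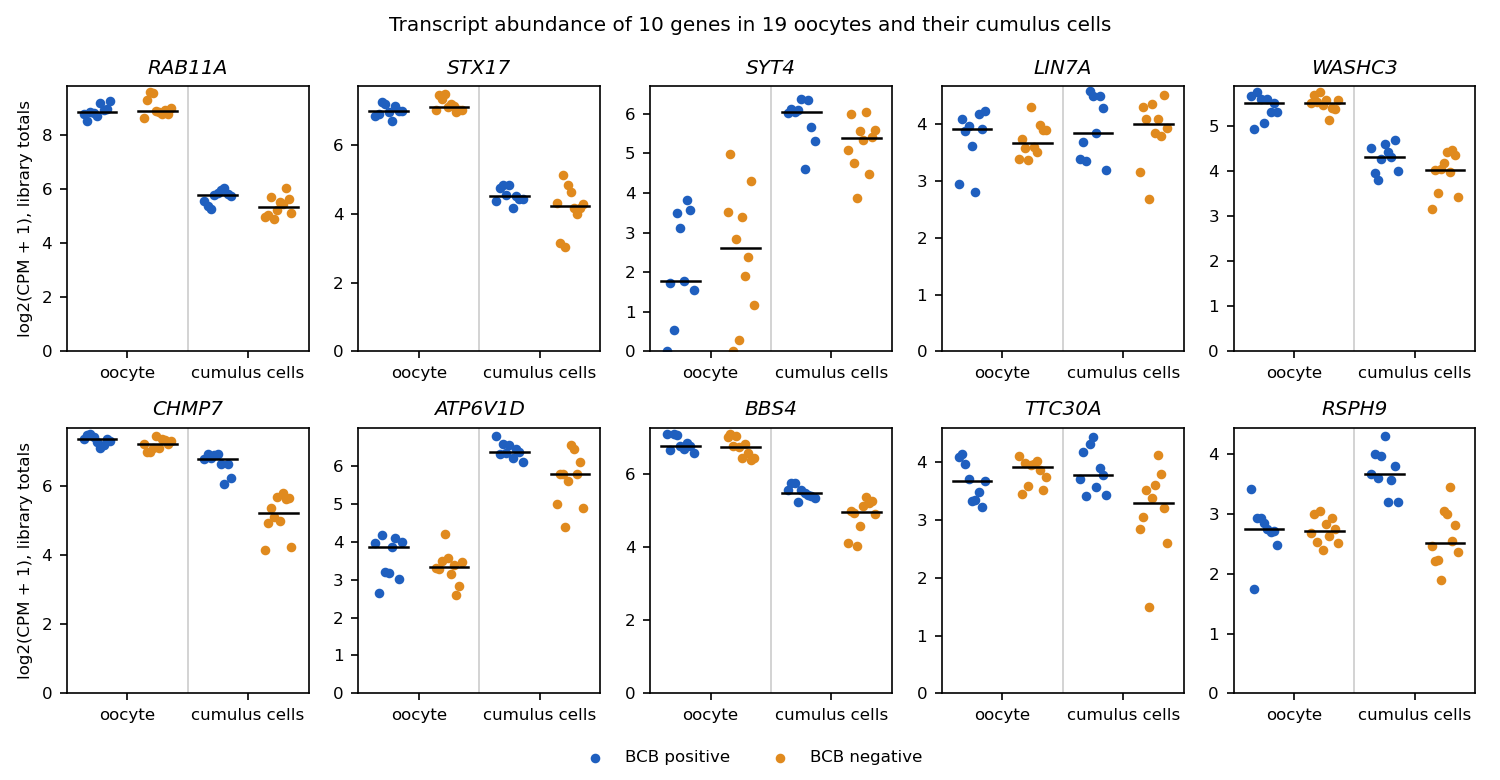
Transcript abundance of the 10 genes, as log2(CPM + 1) on library totals, in each of the 19 oocyte and 19 cumulus libraries, with BCB positive complexes in blue, BCB negative complexes in orange and a line at the median of each group. RAB11A, STX17 and BBS4 sit higher in every oocyte than in any cumulus library, a trait whose share over all genes was not computed. SYT4 spreads widely in oocytes, and the cumulus values of CHMP7 lie apart between the BCB classes.

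RAB11A (ENSBTAG00000018959), the GTPase of recycling endosomes, had the largest oocyte excess of the 10 genes. Its level in oocytes ran from 362 to 758 CPM with a median of 473, and in cumulus cells from 29.0 to 65.3 with a median of 45.7, so that the compartments did not overlap. The log2 difference was 3.002 (SE 0.08, edgeR FDR = 6.1e-20), an 8.01-fold excess in oocytes, and the oocyte was higher in 19 of 19 complexes. Oocyte excess in all 19 complexes was seen for 40.4% of the genes tested. The share of all genes whose compartments did not overlap was not computed, so that the lack of overlap is no mark of this gene or of those below.

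STX17 (ENSBTAG00000008016), the SNARE of autophagosomes that lets them fuse with lysosomes, ran from 102 to 178 CPM in oocytes (median 128) and from 7.25 to 33.9 in cumulus cells (median 20.5). Again no cumulus library reached the lowest oocyte, and the log2 difference was 2.33 (SE 0.11, edgeR FDR = 1.5e-15). SNAP29 and STXBP3 had the largest differences among the other SNAREs and their regulators. SNAP29, which pairs with STX17 on autophagosomes, had medians of 86.4 CPM in oocytes and 8.004 CPM in cumulus cells (log2 difference 2.99, SE 0.16, edgeR FDR = 1.1e-14). STXBP3, a regulator of syntaxins at the plasma membrane, differed by 2.16 (SE 0.11, edgeR FDR = 5.2e-15).

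SYT4 (ENSBTAG00000001801), a synaptotagmin of secretory vesicles, was the most cumulus-sided of the 10 genes and the most variable in oocytes. In cumulus cells it ran from 13.6 to 82.5 CPM with a median of 47.1. In oocytes it was at 0 counts in complexes 17 and 66, where a count of 0 allows up to 0.205 and 0.303 CPM, and under 1 CPM in 2 further oocytes (0.459 CPM in complex 24 and 0.211 CPM in complex 86). The 6 oocytes at 10 CPM or more reached 30.5 CPM, or 409 counts, in complex 65, and the other 9 lay between 1.24 and 9.44 CPM. The cumulus cells were higher in 19 of 19 complexes, with a log2 difference of -3.91 (SE 0.53, edgeR FDR = 4.5e-07) that was -3.53 on library totals. The part of cumulus markers in the SYT4 level of oocytes was not tested. Their sum was 66.3 and 87.2 CPM in the oocytes of complexes 17 and 66, which had no count of SYT4. It was 84.3 CPM in the oocyte with the highest SYT4 (complex 65) and 109 CPM in the next (complex 90, 18.9 CPM of SYT4), against 3893 CPM in the oocyte of complex 72 (13.2 CPM of SYT4) and 1189 CPM in that of complex 88 (2.76 CPM). Without complexes 72 and 88 the log2 difference was -3.92. The other synaptotagmins were divided. SYT2 (log2 difference 1.80, SE 0.29, edgeR FDR = 3.8e-06) was higher in oocytes and SYT11 (-1.22, SE 0.13, edgeR FDR = 2.5e-09) in cumulus cells, both named after their values were seen. SYT16, with medians of 8.18 CPM in oocytes and 0.188 CPM in cumulus cells, and SYT7, with 8.55 and 0.228 CPM, passed the filter on low counts through oocytes alone, so that the filter itself favored an oocyte excess.

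LIN7A (ENSBTAG00000011367), a PDZ scaffold of cell junctions and of the presynaptic side of neurons, was close to even between the compartments. Its level was 5.98 to 18.7 CPM in oocytes (median 13.7) and 5.44 to 23.0 CPM in cumulus cells (median 14.3), ranges that overlap nearly throughout. The log2 difference of -0.63 (SE 0.15, edgeR FDR = 0.00054) placed it higher in cumulus cells, but on library totals it was -0.20 with an FDR of 0.24 and no longer passed. It also missed the threshold in the BCB positive complexes alone (-0.41, edgeR FDR = 0.13) and in complexes 65 to 74 alone (-0.75, edgeR FDR = 0.013). Its paralog LIN7C lay on the oocyte side (log2 difference 1.48, SE 0.07, edgeR FDR = 1.6e-15) and LIN7B on the cumulus side (-0.89, SE 0.14, edgeR FDR = 1.6e-06), where it no longer passed on library totals (-0.46, edgeR FDR = 0.021). LIN7B and LIN7C were named here after their values were seen.

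WASHC3 (ENSBTAG00000000021), a subunit of the WASH complex that builds actin on endosomes, ran from 29.6 to 52.8 CPM in oocytes (median 44.7) and from 7.90 to 24.8 CPM in cumulus cells (median 17.1), with no overlap. The oocyte was higher in 19 of 19 complexes, by 0.94 (SE 0.11, edgeR FDR = 1.7e-08). The other WASH and retromer genes were divided, 5 of 8 higher in oocytes and 3 of 8 higher in cumulus cells, beside 46.4% and 41.6% of all genes. The largest differences were those of VPS26A, a retromer subunit (-2.63, SE 0.09, edgeR FDR = 1.1e-17), and SNX5, a sorting nexin that works with retromer (-2.11, SE 0.11, edgeR FDR = 1.1e-14), both higher in cumulus cells.

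CHMP7 (ENSBTAG00000013528), an ESCRT-III family protein that acts in sealing the nuclear envelope, was the steadiest of the 10 genes in oocytes, from 126 to 182 CPM with a median of 156. In cumulus cells it ran from 16.9 to 121 CPM with a median of 54.4, below every oocyte. The oocyte was higher in 19 of 19 complexes, by 0.95 (SE 0.14, edgeR FDR = 7.1e-07). Of the 3 other ESCRT-III genes that could be matched, CHMP4A (-1.51, SE 0.16, edgeR FDR = 4.5e-09) and CHMP6 (-1.25, SE 0.10, edgeR FDR = 1.9e-11) were higher in cumulus cells and 1 was higher in oocytes. Of all genes, 41.6% were higher in cumulus cells and 46.4% in oocytes.

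ATP6V1D (ENSBTAG00000016309), a subunit of the cytosolic V1 part of the V-ATPase, was carried by the cumulus cells. It ran from 19.9 to 110 CPM there (median 73.2) and from 5.03 to 17.4 CPM in oocytes (median 9.53), with no overlap. The log2 difference was -3.14 (SE 0.17, edgeR FDR = 9.3e-15), the cumulus cells were higher in 19 of 19 complexes, as for 20.9% of genes, and the difference was -3.16 without the 2 complexes whose oocytes held the most cumulus markers. The other genes of the pump were divided. Of 12 other V-ATPase genes tested, 5 were higher in oocytes, 6 were higher in cumulus cells and 1 did not pass, beside 46.4% and 41.6% of all genes higher in oocytes and in cumulus cells. Their median log2 difference was 0.09 beside 0.18 over all genes, and on library totals 6 were higher in oocytes and 3 in cumulus cells. ATP6V0A1, a membrane subunit, had the largest oocyte excess (1.58, SE 0.08, edgeR FDR = 3.3e-15), and ATP6AP1, an accessory subunit, the largest cumulus excess (-2.28, SE 0.13, edgeR FDR = 2.1e-14).

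BBS4 (ENSBTAG00000007614), a subunit of the BBSome, ran from 82.1 to 136 CPM in oocytes (median 107) and from 15.4 to 53.2 CPM in cumulus cells (median 36.9), with no overlap and a log2 difference of 1.19 (SE 0.09, edgeR FDR = 1.6e-11). The 4 other BBSome genes tested were all higher in oocytes, as were 46.4% of all genes, with a median log2 difference of 2.29 beside 0.18 over all genes. BBS2, another subunit, had medians of 345 CPM in oocytes and 28.3 CPM in cumulus cells (log2 difference 3.21, SE 0.08, edgeR FDR = 5.0e-20). ARL6, the GTPase that recruits the BBSome to membranes, had medians of 221 and 32.5 CPM (2.47, SE 0.08, edgeR FDR = 1.6e-18).

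TTC30A (ENSBTAG00000027694), a subunit of the intraflagellar transport complex IFT-B, was at like levels in both compartments, 8.36 to 16.6 CPM in oocytes (median 12.3) and 1.81 to 20.7 CPM in cumulus cells (median 10.8). The log2 difference of -0.20 (SE 0.14) did not pass the test (edgeR FDR = 0.18), and its sign turned to 0.22 on library totals. TTC30A has a close paralog, TTC30B, so that reads of both may have been split or lost in the counting and its level is uncertain. Of 6 other IFT-B genes tested, 4 were higher in oocytes and 2 did not pass, where 46.4% of all genes were higher in oocytes. CLUAP1 had medians of 247 CPM in oocytes and 20.7 CPM in cumulus cells (3.23, SE 0.11, edgeR FDR = 5.8e-18), and IFT88 127 and 44.7 CPM (1.09, SE 0.08, edgeR FDR = 1.1e-11).

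RSPH9 (ENSBTAG00000009549), a head protein of the radial spokes of motile cilia, was counted 3 to 172 times in cumulus libraries (median 42) and 23 to 198 times in oocytes (median 100). It ran from 2.34 to 9.64 CPM in oocytes (median 5.71) and from 2.72 to 18.8 CPM in cumulus cells (median 8.15). The log2 difference was -0.92 (SE 0.18, edgeR FDR = 5.5e-05), higher in cumulus cells, but the cumulus cells were higher in 13 of 19 complexes only, those being 9 of 9 BCB positive and 4 of 10 BCB negative. In BCB negative complexes alone the difference was -0.53 (edgeR FDR = 0.069) and on library totals -0.50 (edgeR FDR = 0.037), both short of the threshold. The 2 other motile cilium genes that could be matched, DNAI1, a dynein chain, and CCDC40, which places the inner dynein arms, had medians in oocytes and cumulus cells of 3.27 and 0.456 CPM for DNAI1 and of 18.3 and 1.71 CPM for CCDC40. Both passed the filter on low counts through oocytes alone, so that an oocyte excess was favored by the filter.

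**Figure D2:**
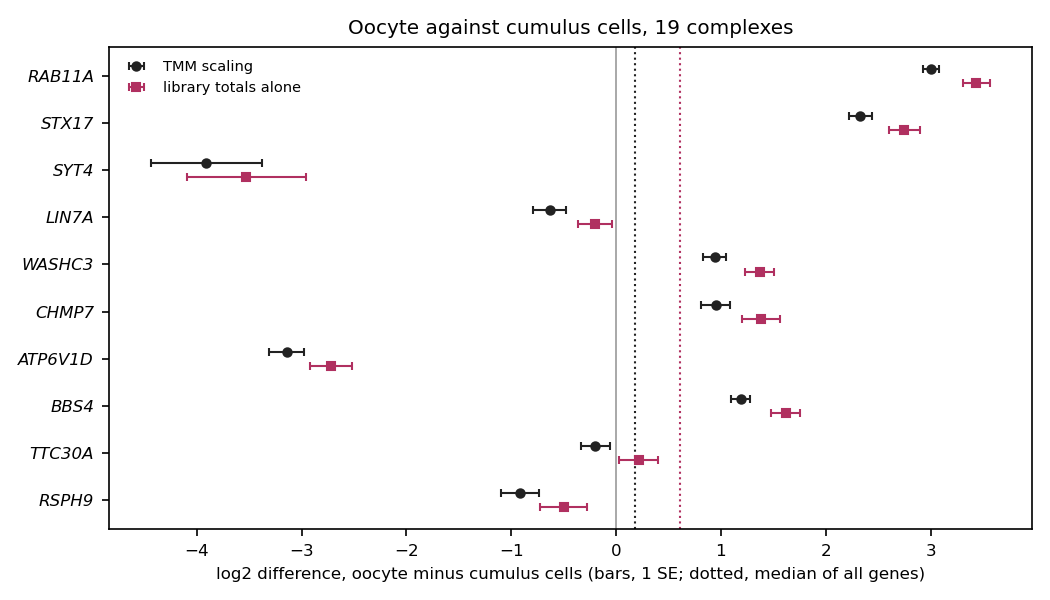
Log2 difference of each gene, oocyte minus cumulus cells, with 1 SE on either side, from edgeR with the complex as a block over 19 complexes, after TMM scaling (black) and on library totals alone (red), with the median of all genes dotted. Library totals move every gene by about the same amount toward the oocyte side, which leaves LIN7A and RSPH9 short of the threshold and turns the sign of TTC30A.

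Over the 9 lists of related genes, 67 of 141 names had an identifier and 57 of these were genes other than the 10. Of the 57, 5 (SYT7, SYT16, DNAI1, CCDC40 and RAB25) passed the filter on low counts through oocytes alone. Of the 52 that passed it in both compartments, 28 were higher in oocytes, 15 were higher in cumulus cells and 9 did not pass, with a median log2 difference of 0.62 beside 0.18 over all genes, of which 46.4% were higher in oocytes and 41.6% in cumulus cells. Over the 10281 genes that passed the filter in both compartments, as these 52 did, the median was 0.084, with 43.6% higher in oocytes and 40.2% in cumulus cells. On library totals the counts of the 52 were 35, 9 and 8, with 4 genes changing sign. Among the RABs of recycling and early endosomes, RAB35 had medians of 113 CPM in oocytes and 17.8 CPM in cumulus cells (edgeR FDR = 8.8e-18), and RAB25, kept through oocytes alone, 11.02 and 0 CPM. RAB11B, the close paralog of RAB11A and named after its value was seen, differed by -0.25 (SE 0.08, edgeR FDR = 0.0039) after TMM, but by -0.14 with DESeq2 size factors (edgeR FDR = 0.11) and by 0.19 on library totals (edgeR FDR = 0.15), so that its sign and call changed with the scaling. Names came from tables ordered by the BCB comparison, so that the matched genes are not a random part of each list.

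Between the BCB classes, CHMP7 in cumulus cells gave the widest gap of the 10 genes, as its choice fixed. The compartment markers also moved with the class in these libraries. The cumulus markers summed to a median of 25681 CPM in BCB positive and 16138 CPM in BCB negative cumulus libraries, and the part of that in the differences below was not tested. ZP2 and ZP3 summed to medians of 0.219 and 3.69 CPM, and without the cumulus libraries over 10 CPM of these oocyte markers the log2 difference was 1.03 for CHMP7 and 0.62 for RSPH9. CHMP7 ran from 65.5 to 121 CPM in 9 BCB positive complexes (median 110) and from 16.9 to 54.4 CPM in 10 BCB negative complexes (median 36.8), with no overlap, as for 1.48% of the 12313 genes tested. After TMM scaling, where 0.0487% of genes had no overlap, the ranges met, at 55.2 to 102 CPM and 21.9 to 63.3 CPM, with 7 of 9 BCB positive complexes above every BCB negative one. The log2 difference was 0.97 (SE 0.18) after TMM and 1.44 (SE 0.21) on library totals, against medians of all genes of -0.01 and 0.46. It was 0.68 (SE 0.24) within complexes 65 to 74. All of these values come from the contrast that chose CHMP7. Within complexes 65 to 74 the CPM of CHMP7, RSPH9, RAB11A, ATP6V1D and BBS4 was higher in all 6 BCB positive than in all 3 BCB negative complexes, as for 39.7% of genes, and after TMM that held for RSPH9 alone of the 10, as for 4.87% of genes.

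RSPH9 had the largest cumulus difference among the 9 genes tested, higher in BCB positive complexes, and it did not pass the threshold. Its level was 8.15 to 18.8 CPM in BCB positive complexes (median 11.7) and 2.72 to 9.91 CPM in BCB negative complexes (median 4.69), and 7 of 9 BCB positive complexes lay above every BCB negative one. The log2 difference was 0.70 (SE 0.22, edgeR p = 0.0036, FDR = 0.078), where 0.56% of all genes passed an FDR of 0.01. On library totals alone it was 1.15 (SE 0.25, edgeR FDR = 0.0028), and in that setting 13.8% of genes passed. Within complexes 65 to 74 it was 1.08 (SE 0.43, edgeR FDR = 0.25). The BCB negative cumulus libraries held 3 to 45 counts of RSPH9. After TMM their SD of 0.35 on the log2 scale was no wider than the 0.40 that counting alone would give. On library totals the SD was 0.47, where counting alone would give 0.38.

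**Figure D3:**
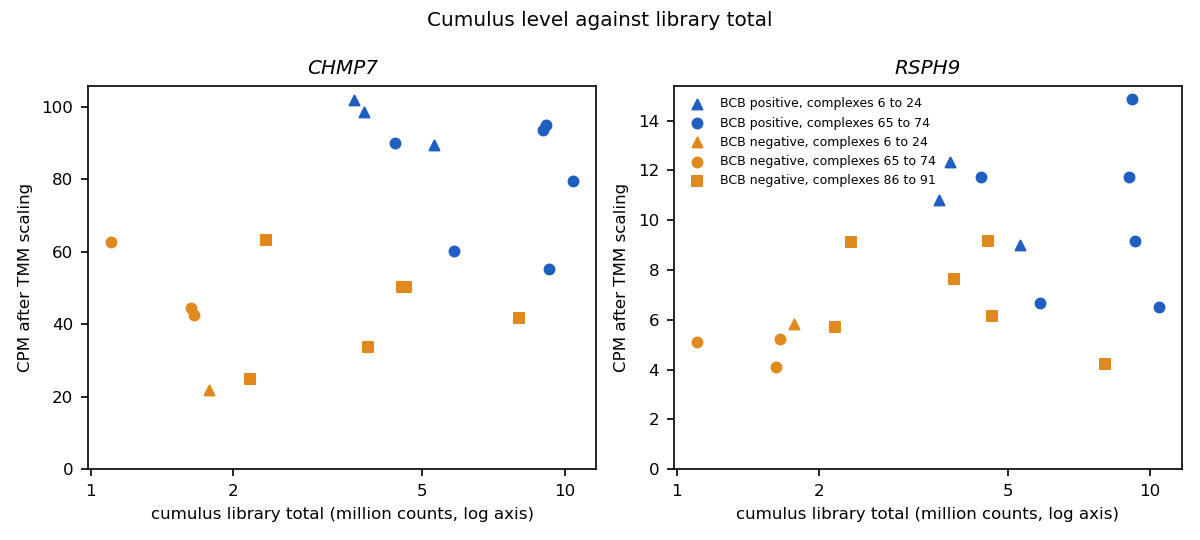
CPM after TMM scaling of CHMP7 and RSPH9 in the 19 cumulus libraries against the library total on a log axis, with color for the BCB class and marker shape for the run of complex numbers. The 3 smallest libraries are BCB negative. On log2(TMM CPM + 1) the coefficient with the log10 cumulus total was 0.46 for CHMP7 and 0.47 for RSPH9 over 19 libraries. It was -0.42 and -0.21 within BCB positive complexes and 0.02 and 0.20 within BCB negative ones. In the edgeR fit with the log10 total as covariate, 0 of the 9 genes tested passed between the classes. How much of either gene's values goes with library size was not tested beyond that.

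None of the other 8 genes passed in cumulus cells, in edgeR or in DESeq2, and RSPH9 alone of the 9 had an unadjusted p under 0.05 in edgeR. BBS4 ran from 36.7 to 53.2 CPM in BCB positive and from 15.4 to 40.3 CPM in BCB negative complexes, but its log2 difference was 0.12 (SE 0.13, edgeR FDR = 0.66) after TMM. ATP6V1D ran from 68.2 to 110 CPM and from 19.9 to 92.1 CPM, with a log2 difference of 0.20 (SE 0.18, edgeR FDR = 0.57). SYT4 (0.08, SE 0.26) and TTC30A (0.17, SE 0.21) also had values near 0. RAB11A, STX17, LIN7A and WASHC3 had negative log2 differences after TMM, from -0.14 for RAB11A to -0.44 for LIN7A (SE 0.24, edgeR FDR = 0.32), and positive ones on library totals, from 0.04 for LIN7A to 0.33 for RAB11A, below the median of 0.46 of all genes. LIN7A had medians of 13.4 CPM in BCB positive and 15.2 CPM in BCB negative complexes. Of 52 tested genes of the 9 lists other than the 10, 0 passed in edgeR at an FDR of 0.01 and 12 had an unadjusted p under 0.05, as did 18.7% of all genes.

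**Figure D4:**
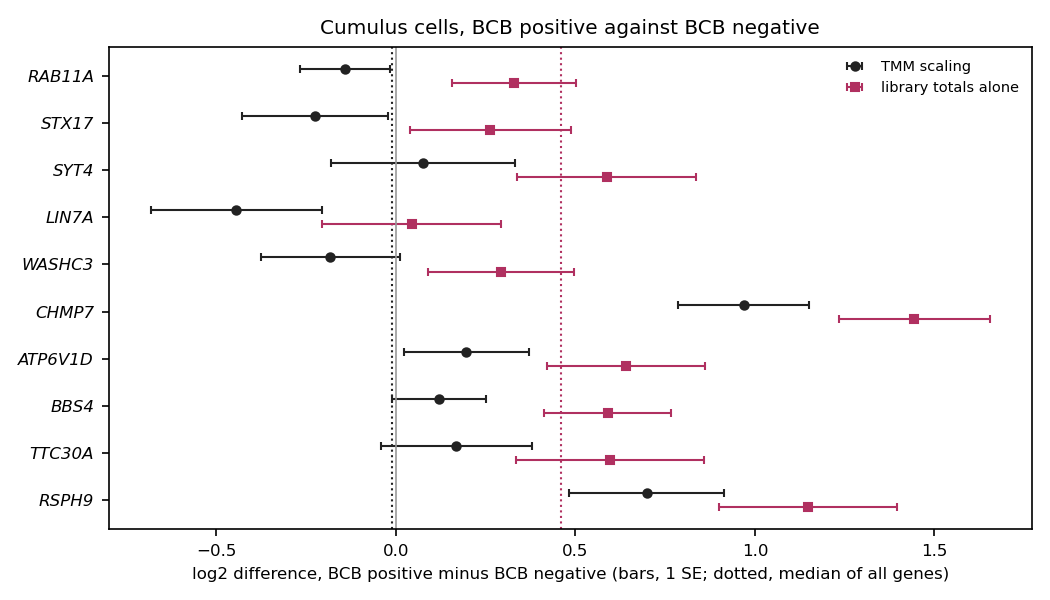
Log2 difference of each gene in cumulus cells, BCB positive minus BCB negative, with 1 SE on either side, after TMM scaling (black) and on library totals alone (red), with the median of all genes dotted. CHMP7, which was chosen for this contrast, and RSPH9 lie farthest to the right on either scale, and RAB11A, STX17, LIN7A and WASHC3 turn sign between the scales.

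In oocytes no gene of the 10 passed between the BCB classes over all complexes, nor had one an unadjusted p under 0.05 in edgeR, nor did any of the 12753 genes tested pass (0% at an FDR of 0.01 in edgeR and in DESeq2, with 711 and 770 genes at an unadjusted p under 0.05). STX17 ran from 102 to 149 CPM in BCB positive oocytes and from 122 to 178 CPM in BCB negative ones (log2 difference -0.18, SE 0.10, edgeR FDR = 0.89). CHMP7 ran from 137 to 182 CPM and from 126 to 173 CPM (0.13, SE 0.07, edgeR FDR = 0.89). The SYT4 difference of -0.62 had an SE of 0.84 and ran from -0.89 without complex 72 to -0.10 without complex 65. The 57 related genes gave 0 passing and 6 with an unadjusted p under 0.05, as had 5.58% of all genes. The remaining 7 genes of the 10 had log2 differences from -0.16 for RAB11A to 0.31 for ATP6V1D.

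RAB11A and STX17 separated the classes within complexes 65 to 74 but not within complexes 6 to 24. The 3 BCB negative oocytes held 624, 758 and 746 CPM of RAB11A in complexes 65, 66 and 68, and the 6 BCB positive oocytes held 408 to 612 CPM. For STX17 the same 3 oocytes held 175, 159 and 178 CPM against 102 to 144 CPM. Both genes were higher in all 3 BCB negative than in all 6 BCB positive oocytes, as were 4.53% of genes on CPM and 7.23% after TMM. The log2 differences within the run were -0.54 (SE 0.13, edgeR FDR = 0.069) for RAB11A and -0.48 (SE 0.11, edgeR FDR = 0.062) for STX17, and no gene passed an FDR of 0.01 in that setting. In complexes 6 to 24 the 1 BCB negative oocyte held 393 CPM of RAB11A, between the 362 to 453 CPM of the 3 BCB positive oocytes, and 127 CPM of STX17, between their 113 to 149 CPM. The 6 BCB negative oocytes of complexes 86 to 91 held less than those of complexes 65, 66 and 68, at 429 to 503 CPM of RAB11A and 122 to 144 CPM of STX17. The complexes 65, 66 and 68 also had the smallest cumulus libraries, and any part of that in the oocyte values was not tested.

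For the ratio between oocyte and cumulus cells, 0 of the 9 genes tested passed between the BCB classes in edgeR or in DESeq2, where 0.0135% of all genes passed in edgeR, and RSPH9 alone had an unadjusted p under 0.05 in edgeR. Of the 57 related genes, 0 passed and 13 had an unadjusted p under 0.05, as did 15% of all genes. For CHMP7, as a description, the log2 ratio of oocyte to cumulus CPM plus 1 ran from 0.34 to 1.15 in BCB positive and from 1.56 to 3.05 in BCB negative complexes. RSPH9 had ratios from -2.27 to -0.26 in BCB positive and from -0.81 to 1.15 in BCB negative complexes, and its difference between the classes was -0.73 (SE 0.33, edgeR FDR = 0.30).

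Whether an oocyte rich in a transcript sat in cumulus cells rich in it was asked over the 19 complexes for each gene, on log2(TMM CPM + 1). RAB11A had the clearest relation among the 9 genes tested, with r = 0.51 (permutation p = 0.026) and rho = 0.62 (permutation p = 0.0051). Adjusted for the 10281 genes compared, these p-values were 0.51 and 0.46, so that neither passed. Without complexes 66 and 68, the 2 farthest from the median oocyte level, r was 0.32, within BCB positive complexes 0.41, within BCB negative complexes 0.60 and within complexes 65 to 74 0.42. On library totals alone r was -0.09, so that its sign changed with the scaling. STX17 went from r = 0.01 (permutation p = 0.98, rho = 0.15, p = 0.53) to r = 0.63 when complexes 65 and 68 were left out, and was 0.64 within BCB positive and -0.21 within BCB negative complexes. The other 7 genes tested had r from -0.13 for RSPH9 to 0.28 for WASHC3 and rho from -0.11 to 0.29, with permutation p from 0.23 to 0.89. For CHMP7, whose cumulus level differs between the classes, r was 0.54 in all, 0.59 among BCB positive and 0.16 among BCB negative complexes, given with no test. Of all 10281 genes, 0% passed an adjusted p of 0.01 by r and 0% by rho, and 8.61% and 7.73% had an unadjusted p under 0.05.

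The coefficients for which 9 of the genes had been named are described here over 11 pairs of a cumulus gene and its oocyte partner. The study divided counts by the TMM factor alone and applied the inverse hyperbolic sine. With values made that way, on TMM factors computed from the genes kept here, which need not be those the study used, Pearson's coefficient was 0.988 to 0.997 over the 9 BCB positive complexes and 0.418 to 0.809 over the 10 BCB negative complexes. RSPH9 had the highest coefficient, 0.997 with ZFPM1, a cofactor of GATA factors, and 0.991 with ICA1L. BBS4 had 0.995 with RABEP2, a partner of endosomal RAB proteins, STX17 had 0.994 with DIP2C, RAB11A had 0.993 with the histone gene H2AC4, and SYT4 had 0.992 with ACADM, an enzyme of fatty acid oxidation. LIN7A had 0.991 with TIMM8B, a chaperone of mitochondrial import, TTC30A 0.991 with the cadherin CDH4, WASHC3 0.989 with the histone gene H2BC12, and ATP6V1D 0.988 with the nuclear receptor NR2F1 and 0.989 with the sphingomyelin synthase SGMS1. Histone genes have near-identical copies among which reads can be divided, so that H2AC4 and H2BC12 are uncertain.

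Values divided by the TMM factor alone keep the size of the library. In the BCB positive complexes the cumulus values of the 9 genes followed the log10 cumulus total with coefficients of 0.62 for SYT4 to 0.96 for BBS4, the partners followed the oocyte total with 0.70 to 0.92, and the totals followed each other with 0.67. The part of library size in the coefficients of the pairs was not tested. Because the pairs were named for high coefficients on values without scaling to the total, lower ones on another scale are to be read with that choice in mind. The same pairs were also taken on log2(TMM CPM + 1), so that the transform changed together with the scaling to the library total. Their coefficients then ran from -0.64 for ATP6V1D with NR2F1 to 0.68 for RAB11A with H2AC4 in BCB positive complexes. In BCB negative complexes they ran from -0.37 for RSPH9 with ICA1L to 0.63 for TTC30A with CDH4.

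**Figure D5:**
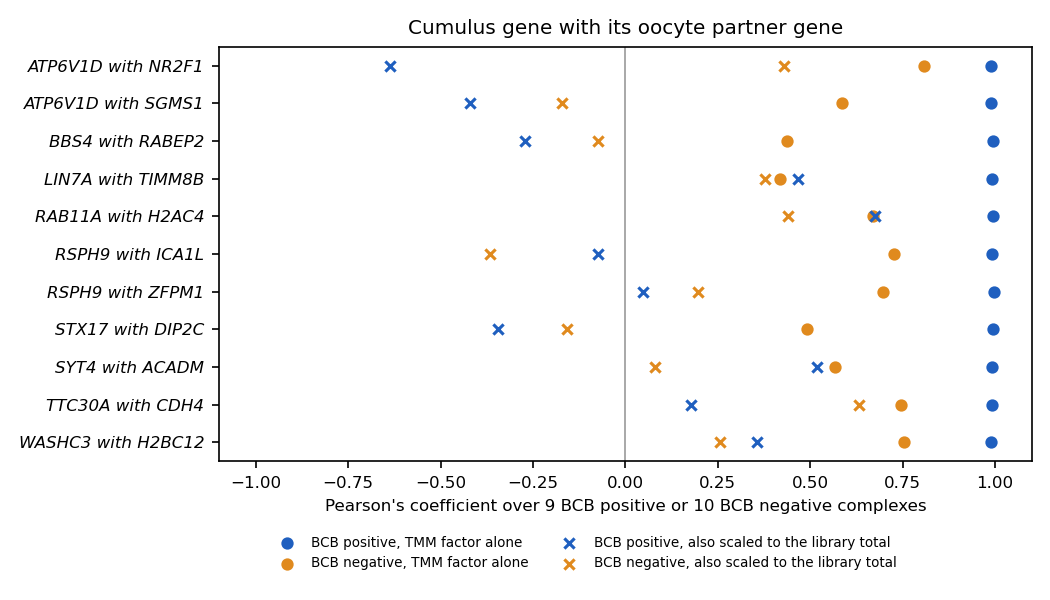
Pearson's coefficient between the cumulus level of each of 9 genes and the oocyte level of its partner gene, over 9 BCB positive (blue) and 10 BCB negative (orange) complexes. Dots are from the inverse hyperbolic sine of counts divided by the TMM factor alone. Crosses are from log2(TMM CPM + 1), which is also scaled to the library total. The blue dots lie between 0.988 and 0.997 and the blue crosses between -0.64 and 0.68.

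The spread between complexes was taken as the SD of log2(TMM CPM + 1). In oocytes CHMP7 had an SD of 0.14 in BCB positive and 0.12 in BCB negative complexes, below 0.31 and 0.30 for the median gene, whereas SYT4 had 1.38 and 1.67, at the 99.3 and 99.7 percentile of all genes. Counting alone would give SYT4 0.15 and 0.11 there. RAB11A had 0.23 and 0.37 and ATP6V1D 0.55 and 0.45. In cumulus cells the median SD of all genes was 0.33 in BCB positive and 0.53 in BCB negative complexes, and that of the 10 genes was 0.33 and 0.49. On that scale RAB11A was the least spread of them in BCB negative cumulus cells, at 0.19 where counting alone would give 0.16, and SYT4 the most in both classes, at 0.58 and 0.67. On library totals RAB11A had 0.37 in BCB negative cumulus cells, and TTC30A, at 0.74, and ATP6V1D, at 0.69, were above SYT4, at 0.68.

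On library totals the cumulus level of each of the 10 genes rose with the log10 cumulus total over 19 libraries, with coefficients from 0.35 for STX17 to 0.83 for RAB11A, beside a median of 0.57 over the 12313 genes kept in cumulus cells, of which 93.1% had a positive one. After TMM the coefficients ran from -0.27 for STX17 to 0.49 for TTC30A, 5 of the 10 being negative, beside a median of 0.064. These span both BCB classes, whose cumulus totals differ. Within BCB positive complexes they ran from -0.68 for BBS4 to 0.51 for RAB11A, and within BCB negative ones from -0.21 for STX17 to 0.56 for TTC30A. After TMM scaling their 45 pairwise coefficients across the 19 cumulus libraries ran from -0.47 to 0.69 with a median of 0.17, on values that share a library and its scaling, and the highest was that of CHMP7 with RSPH9. In oocytes the 45 coefficients ran from -0.56, for RAB11A with CHMP7, to 0.64, for RSPH9 with WASHC3, with a median of 0.11. Among 4491 named genes kept in cumulus cells, the one most like CHMP7 over the 19 libraries was the zinc transporter SLC39A13 (r = 0.86), and that most like ATP6V1D was FAM177A1 (r = 0.86). CHMP7 was chosen for its BCB difference in these libraries, and the study lists SLC39A13 as higher in BCB positive cumulus cells. Their coefficient, taken over both classes, therefore carries that choice, and the choice of CHMP7 also enters its coefficient with RSPH9. The nearest to TTC30A was SAYSD1 (0.80), to SYT4 RWDD4 (0.80), to STX17 TRMT44 (0.79), to WASHC3 SVBP (0.78), to BBS4 POLDIP2 (0.77), to RSPH9 KLK4 (0.76), to LIN7A BARX1 (0.76) and to RAB11A PTPRJ (0.74).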

How the data were processed

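Each file held counts of reads per Ensembl gene for 19 libraries, one file for oocytes and one for cumulus cells. Per the labels and the methods of the study, the authors aligned trimmed read pairs to ARS-UCD1.2 with HISAT2 (2.1.0), removed duplicates and deposited featureCounts (1.6.0) counts with no normalization. The cDNA was amplified without molecular identifiers, so that limits from counting cover counting error only.

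Oocyte and cumulus cells of a complex share its number in the labels, and come from 1 follicle, so that the complex was a block in the comparison of compartments. The BCB groups share no complex. Counts were tested in edgeR 4.0.16 (R 4.3.3) with TMM factors, a robust quasi-likelihood F test and Benjamini-Hochberg adjustment (FDR of 0.01) over genes above 2 CPM in at least 9 of 19 libraries of either compartment, or of the compartment tested. DESeq2 1.42.0 was an alternative. Correlations used log2(TMM CPM + 1) and 100000 permutations of the pairing, two-sided. The scripts were tested on simulated data. Spread and coefficients were computed in Python 3.11.15 and scipy 1.17.1.

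The genes and lists were chosen with earlier results of these data known. Text names the 10 genes, their partners, the gene most like each in cumulus cells and the 2 largest called differences of each list, and also SYT2, SYT11, LIN7B, LIN7C and RAB11B, which were named after their values were seen. Symbols were paired with 4934 of 27607 identifiers through the supplementary tables, the rest being left out of lists. Pairs of libraries of a compartment, within and across BCB classes, had r of 0.963 to 0.994 in oocytes and 0.865 to 0.989 in cumulus cells, and no pair held identical values. Gene lengths, coordinates and sequences were not used here, so that levels were not compared between genes.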

Additional observations from a re-analysis of the deposited data

Results flagged for a closer look

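Within BCB negative oocytes, ATP6V1D was higher in complex 68 than in the others. It had 17.4 CPM there and 10.8 CPM in the next oocyte, a gap that made up 0.53 of the range over 10 oocytes. Of 40 groups of a gene, compartment and BCB class examined for a library apart from the rest, 1 was of this kind. Chance gives about 1 in 20 groups, so that 1 in 40 is no more than chance would give.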

How the results depend on the processing

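In the comparison of compartments, 9 genes passed in each fit without 1 complex, with DESeq2, without the block (no replicate block, 9 of the 10 and 13095 of all genes) and without the oocytes over 1000 CPM of cumulus markers. On library totals 7 passed, and 8 passed in BCB positive, in BCB negative and in 65 to 74 complexes alone, where 84.3%, 80% and 81.4% of all genes did. With 1 complex left out, direction and call held for all 190 values of single genes between compartments, for 189 between BCB classes in cumulus cells and for 188 in oocytes. For CHMP7 in cumulus cells, which has no call, only direction and size were compared, on the contrast that chose it. TTC30A turned to 0.015 in BCB negative complexes and 0.22 on library totals.

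The count of cumulus genes passing between BCB classes was 69, and it moved to 364 with DESeq2, 1704 on library totals (where 1 of the genes described, RSPH9, passed), 2 with the log10 total as covariate, 164 with no filter, 215 by the rule of the methods, 115 with the run as covariate, 360 at an FDR of 0.05 and 10 without the cumulus libraries over 10 CPM of oocyte markers. Leaving out 1 complex gave 6 to 160. It was 6 to 8 without 24, 17, 19, 70, 72, 91, 69 or 71, and 11 to 40 without 65, 86, 74, 68, 6, 73 or 66. Without complex 87 it was 60, without complex 90 it was 90, and without 88 and 89 it was 138 and 160. The 2 genes whose compartment ratio differed became 194 with DESeq2, 164 in complexes 65 to 74, 237 on library totals and 14 at an FDR of 0.05. The causes were not tested.

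Some values that did not pass changed sign. In cumulus cells, RAB11A, STX17, LIN7A and WASHC3 were 0.33, 0.26, 0.043 and 0.29 on library totals and 0.32, 0.26, 0.043 and 0.28 by the rule of the methods. STX17 was 0.053 and TTC30A -0.041 with the log10 total, BBS4 -0.079 and SYT4 -0.067 in complexes 65 to 74, and SYT4 -0.062 without cumulus libraries holding oocyte markers and -0.028 to 0.21 without 1 complex. In oocytes, ATP6V1D was -0.14, BBS4 -0.24 and RSPH9 -0.20 in complexes 65 to 74, BBS4 -0.20 and RSPH9 -0.10 with the run, LIN7A -0.025 without oocytes holding cumulus markers, and RSPH9 -0.083 to 0.15 and LIN7A -0.011 to 0.15 without 1 complex. For the ratio between classes, RAB11A was 0.022 with CPM above 2 in all libraries, and RAB11A, STX17 and BBS4 were 0.088, 0.063 and 0.063 with DESeq2 and 0.074, 0.052 and 0.042 with its size factors. ATP6V1D, LIN7A and WASHC3 were -0.45, -0.035 and -0.40 on library totals, ATP6V1D and WASHC3 -0.078 and -0.025 with no filter, and ATP6V1D, SYT4 and WASHC3 -0.25, 0.17 and -0.00396 in complexes 65 to 74. Own-gene r on library totals was -0.089 for RAB11A, -0.34 for STX17 and -0.12 for WASHC3. Leaving out libraries by marker sums was chosen after seeing the data. Cumulus totals limit the low genes, RSPH9, LIN7A and TTC30A among them.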
